A study of Mus musculus with 2 samples.

Results

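A set of 10 proteins that fold secretory cargo in the endoplasmic reticulum (ER), clear it, or regulate this work was followed at the RNA level through their genes Hspa5, Hyou1, Pdia4, Sdf2l1, Creld2, Dnajb9, Dnajb11, Derl3, Herpud1 and Xbp1. A probe was assigned to one of these genes when its transcript accession is a RefSeq transcript of that gene, which gave 12 probes on 21 spots for the 10 genes, of 20284 genes named on the array. The livers came from male C57BL/6 mice with liver fibrosis, in both groups. One group was injected intravenously with recombinant TSG-6, which is secreted in inflamed tissue and binds hyaluronan, and the control group was given PBS. Liver RNA was extracted 2 weeks later from 3 mice of each group, pooled in equal amounts, and read on 1 one-colour Agilent array per pool. The agent that caused the fibrosis, the dose and the age of the mice are not given in the sources used here, and no liver without fibrosis was analysed here.

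The ER is where a liver cell makes its plasma proteins, and its chaperones keep unfolded chains soluble while sugars and disulfide bonds are added. When unfolded chains build up, the sensors IRE1, ATF6 and PERK start the unfolded protein response, which raises chaperones, disulfide isomerases and the machinery of ER-associated degradation (ERAD) that passes failed proteins back to the cytosol for destruction. XBP1, whose mRNA is spliced by IRE1, and ATF6 act on many of these genes through the ER stress response element, ERSE. Secretory cells such as hepatocytes, plasma cells and pancreatic acinar cells depend on this system, and collagen-producing fibroblasts use it too.

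The promoters of the members are shown first because the ER stress response element, by which this gene family is known, lies in some of them. RefSeq windows of the 250 bases before the start site (build GRCm38.p6) were at hand for 9 of the 10 members, all but Hyou1. The 4 motifs were searched on both strands: ERSE, which is CCAAT and CCACG with 9 bases between them; ERSE-II, which is ATTGG and CCACG with 1 base between them; UPRE, TGACGTGG; and the core CCACG, which is part of both ERSE and ERSE-II. ERSE was found in 3 of the 9 members, Hspa5, Derl3 and Creld2, against 0.130% of the 27025 genes with such a window. ERSE-II was found in 1 of 9, Herpud1, against 0.0370% of genes. UPRE was found in 0 of 9, against 0.603% of genes. The core was found in 6 of 9, the former 4 plus Sdf2l1 and Dnajb9, against 31.0% of genes. Pdia4, Dnajb11 and Xbp1 held none of these letters in this window. Counted from the start site, the element of Hspa5 lay at -65 to -47, that of Derl3 at -156 to -138, that of Creld2 at -126 to -108 and the ERSE-II of Herpud1 at -52 to -42; the elements of Derl3 and Creld2 read on the opposite strand. These matches describe letters and were not tested for binding. In the sequences, read 5′ to 3′ towards the start site, capitals mark ERSE or ERSE-II, and in Sdf2l1, which has neither, the core CCACG or its reverse complement. The windows are chr2:34771840-34772089 (plus strand), chr10:75893148-75893397 (plus), chr15:88819396-88819645 (plus), chr8:94386179-94386428 (plus) and chr16:17132384-17132633 (minus).
Hspa5: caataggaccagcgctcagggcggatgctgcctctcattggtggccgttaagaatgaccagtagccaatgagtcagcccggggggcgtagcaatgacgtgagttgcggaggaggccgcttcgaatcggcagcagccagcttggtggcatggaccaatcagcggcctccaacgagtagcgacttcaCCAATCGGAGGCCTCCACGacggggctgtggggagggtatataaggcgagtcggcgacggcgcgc
Derl3: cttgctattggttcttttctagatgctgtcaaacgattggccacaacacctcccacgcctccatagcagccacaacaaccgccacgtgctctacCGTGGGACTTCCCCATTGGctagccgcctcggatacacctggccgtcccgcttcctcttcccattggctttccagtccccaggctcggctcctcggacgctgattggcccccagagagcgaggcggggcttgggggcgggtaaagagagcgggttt
Creld2: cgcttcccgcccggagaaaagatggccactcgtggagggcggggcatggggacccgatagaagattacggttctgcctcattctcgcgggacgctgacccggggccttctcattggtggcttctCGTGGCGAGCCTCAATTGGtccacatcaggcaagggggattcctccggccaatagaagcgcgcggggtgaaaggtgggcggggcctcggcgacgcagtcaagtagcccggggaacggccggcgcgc
Herpud1: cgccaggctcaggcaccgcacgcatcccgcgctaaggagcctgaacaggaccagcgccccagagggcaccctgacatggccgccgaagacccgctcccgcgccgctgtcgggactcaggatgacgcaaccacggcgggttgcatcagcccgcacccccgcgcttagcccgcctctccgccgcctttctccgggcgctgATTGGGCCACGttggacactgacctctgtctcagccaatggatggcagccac
Sdf2l1: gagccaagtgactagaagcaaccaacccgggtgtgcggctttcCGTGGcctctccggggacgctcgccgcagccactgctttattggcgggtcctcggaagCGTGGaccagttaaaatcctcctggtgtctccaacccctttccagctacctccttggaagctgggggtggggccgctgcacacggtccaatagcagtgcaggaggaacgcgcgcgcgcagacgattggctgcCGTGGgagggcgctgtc

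Signals are given as the scanner software's processed signal, a linear intensity after background subtraction. Levels are log2 of that signal minus the log2 75th percentile of the same array, and differences are the TSG-6 level minus the PBS level. That percentile was 3158 for PBS and 2476 for TSG-6, so equal raw signals stand for a higher level on the TSG-6 array. With 1 array per group there is no replicate and no test, and array and group cannot be told apart. Spots printed in copies set the spot noise: over 327 such probes the log2 difference had an SD of 0.13, which says nothing of the spread between mice. The share of usable spots well above background was 73.1% for PBS and 73.9% for TSG-6, and no spot was saturated. In whole liver, fewer cells of a type and less RNA per cell cannot be told apart.

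Of the members, Derl3, Hyou1, Sdf2l1 and Creld2 had levels in the TSG-6 pool that were 2-fold lower or more. No member was 2-fold higher, and 5 of the 9 measured members lay between these limits. Of all 15151 measured genes, 4.29% passed the same limit downwards and 2.94% upwards. At 1.5-fold 5 of the 9 members were lower, against 10.3% of all genes, and at 3-fold 2 of 9, against 1.49%. The median difference of the 9 members was -0.72, against 0.08 for all measured genes, and 7 of the 9 were below 0, against 42.5% of all genes. The members were proposed with results of these arrays known, so these counts describe them and single out nothing. Dnajb9, the tenth member, had an outlier flag on every spot and is given apart. With it the median was -0.84 and 8 of 10 members were below 0.

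**Figure D1:**
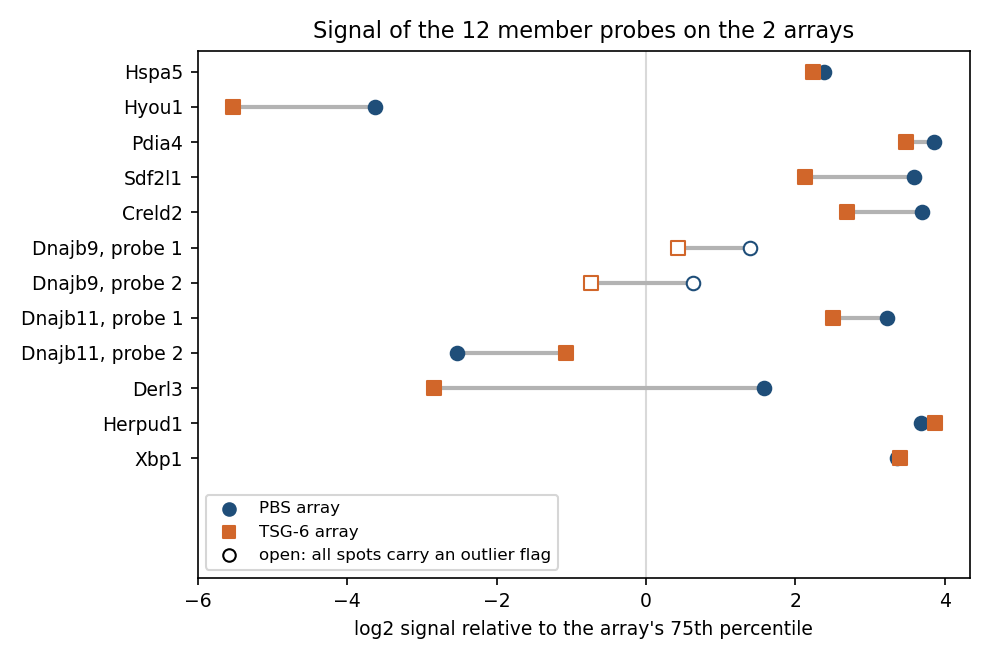
Level of each of the 12 member probes on the PBS array (circles) and the TSG-6 array (squares), as log2 signal relative to the 75th percentile of the array; open symbols mark probes whose spots were all flagged. The longest line is that of Derl3, from 1.57 to -2.83, and the dimmer Dnajb11 probe is the one member probe with a clearly higher TSG-6 level, -1.07 against -2.54.

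The luminal chaperones did not move as a block. Hspa5 encodes BiP, the ER member of the HSP70 family that binds unfolded chains and holds the stress sensors inactive. Its signal was 16529 in the PBS pool and 11656 in the TSG-6 pool, levels of 2.39 and 2.23. The difference of -0.15, or 1.11-fold lower, was about the size of the spot noise, and it was 0.14 with the percentile taken over unflagged spots. Hyou1 encodes the large HSP110-type chaperone that exchanges nucleotide on BiP. Its probe was dim, with a signal of 256.2 in the PBS pool and 53.5 in the TSG-6 pool, a difference of -1.91 or 3.75-fold lower. Under normexp background correction, which adds an offset to both arrays, the difference of Hyou1 was -0.90 and thus under 2-fold. Hsp90b1, the ER HSP90 called GRP94, stood beside BiP with a difference of 0.28.

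Sdf2l1 and Creld2 are small luminal proteins induced by ER stress. SDF2L1 works with BiP and its J-domain partners to keep clients soluble, and CRELD2 has been assigned a disulfide isomerase-like role. The Sdf2l1 signal was 37955 in the PBS pool and 10793 in the TSG-6 pool. The difference was -1.46, or 2.76-fold lower, and lay between -1.79 and -1.17 over 12 alternative settings. Creld2 was the one member printed on the array in many copies, and its 10 spots show the spread between spots within an array. The copies on an array share 1 RNA pool and are bright, so they do not stand for dim single spots. On the PBS array the 10 spots ran from 39962 to 42025 with a median of 40825. On the TSG-6 array the 9 spots without a flag ran from 15483 to 16598 with a median of 15994. These are signals before scaling. The differences of the 9 paired spots ran from -1.04 to -0.94, with an SD of 0.03. The Creld2 difference of -1.002, or 2.003-fold lower, lay just past the 2-fold limit, and it was -0.95 under normexp and -0.71 with the percentile of unflagged spots. The spot spread is small beside that dependence on scaling. The paralogues of the pair differed little: Sdf2 differed by 0.10, and Creld1, whose spots were all flagged, by 0.03.

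The J-domain co-chaperones, which hand clients to BiP and start its ATP cycle, gave less settled values. Dnajb9 encodes ERdj4, which also returns BiP to the sensor IRE1. Both of its probes were flagged as non-uniform on both arrays, so its values come from spots that were otherwise left out. The brighter probe gave a signal of 8311 in the PBS pool and 3343 in the TSG-6 pool, a difference of -0.96. The dimmer probe gave 4865 and 1492, a difference of -1.35. Both probes lay below 0 in each of 7 other scalings or background corrections, from -1.29 to -0.67 for the brighter and from -1.68 to -1.06 for the dimmer; these settings were chosen after seeing the data. Dnajb11 encodes ERdj3, a secreted and luminal partner of BiP, and its 2 probes went opposite ways. The brighter probe had a signal of 29512 in the PBS pool and 14033 in the TSG-6 pool, a difference of -0.72. The dimmer probe, listed under another transcript of the gene, had 544.5 and 1183, a difference of 1.47. The mean over both was 0.37, so the direction of Dnajb11 depends on the probe. Dnajc3, which encodes the J-domain protein p58IPK and is no member, was 2.38-fold lower, and just under 2-fold, at -0.96, with the percentile of unflagged spots.

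Pdia4 encodes ERp72, a disulfide isomerase of the ER lumen that is found in complexes with BiP. Its signal was 45943 in the PBS pool and 27783 in the TSG-6 pool. The difference was -0.37, or 1.30-fold lower, and ranged from -0.70 after spike-in scaling to -0.09 with the percentile of unflagged spots. Its relatives gave unlike values. Pdia6 differed by -0.32 with its brighter probe and by -1.09, past 2-fold, with its other probe. P4hb, the founding disulfide isomerase, differed by 0.04.

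Of the ERAD members, Derl3 and Herpud1 parted. Derl3 encodes derlin-3, a membrane protein of the channel through which misfolded proteins leave the ER. Its single spot had a signal of 9404 in the PBS pool and 347.6 in the TSG-6 pool. The difference was -4.41, or 21.2-fold lower, the lowest among the members and the value of rank 12 from the lowest of all 15151 measured genes. It lay between -4.73 and -4.12 over 12 alternative settings. Its paralogues differed far less, Derl1 by -0.28 and Derl2 by 0.19. Herpud1 encodes HERP, which gathers the ERAD ligase complex at the membrane. Its signal was 40485 in the PBS pool and 36082 in the TSG-6 pool, a difference of 0.18 that was -0.02 after loess and -0.14 after spike-in scaling. The ligase itself, Syvn1, differed by -0.38 and its partner Sel1l by -0.56.

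Xbp1 encodes the transcription factor of the IRE1 arm. Its signal was 32538 in the PBS pool and 26080 in the TSG-6 pool, a difference of 0.03, and from -0.29 to 0.32 over the alternative settings. The array reads the total transcript and was not used here to separate the spliced from the unspliced form. The sensors were likewise under 2-fold: Ern1, which encodes IRE1, differed by -0.29, Eif2ak3, which encodes PERK, by -0.40, and Atf6, with flagged spots only, by -0.36.

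**Figure D2:**
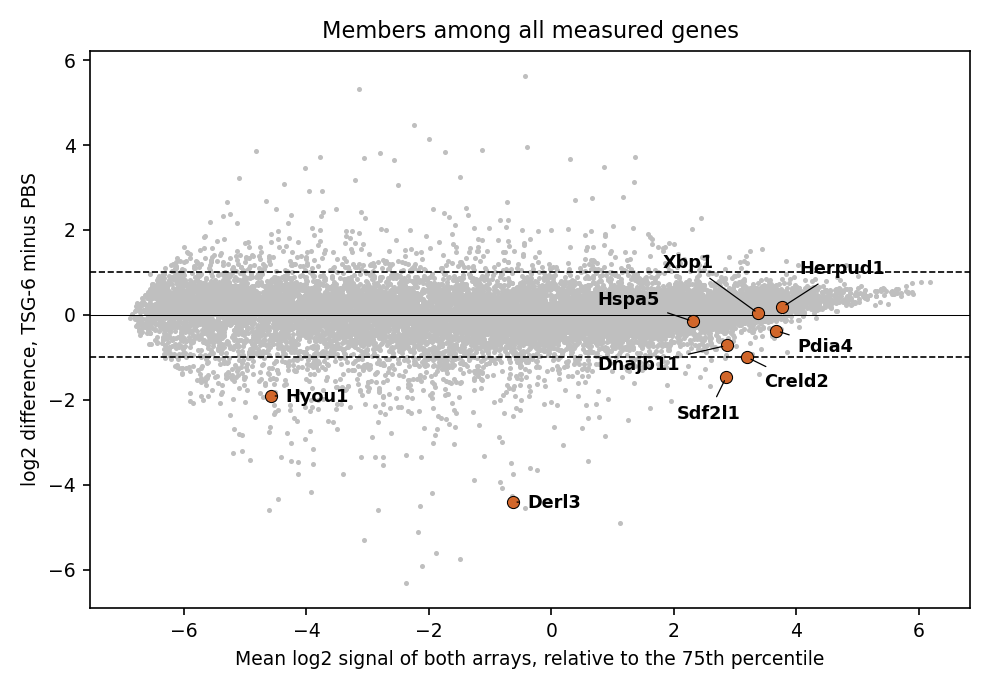
Difference (TSG-6 minus PBS, log2) against mean level for the 15151 measured genes (grey) and the 9 measured members (orange); dashed lines mark 2-fold. Derl3, Hyou1 and Sdf2l1 lie clearly under the lower line, Creld2 lies on it at -1.002, and Herpud1 and Xbp1 lie near 0 within the bright end of the cloud.

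Members with the full element in the printed windows spanned the range of the differences. Derl3 (-4.41) and Creld2 (-1.002), with ERSE, were past 2-fold, while Hspa5 (-0.15), also with ERSE, and Herpud1 (0.18), with ERSE-II, were not. Sdf2l1 (-1.46) held only copies of the core. Of the 32 other genes with ERSE in the window, 15 were measured. Of these, 1 was past 2-fold downwards, Dnajc3 (-1.25), and 1 upwards, the acetyl-CoA carboxylase gene Acacb (2.03). Their median was -0.25 and 9 of 15 lay below 0. Of all measured genes 4.29% passed 2-fold downwards, 2.94% upwards, and 42.5% lay below 0. Of the 15, those on the lists of ER genes included Syvn1 (-0.38), Pdia6 (-0.32), Canx (-0.15), Calr (0.20) and Hsp90b1 (0.28). Other genes with ERSE-II, 5 measured, had 0 past 2-fold, 2 below 0 and a median of 0.02. For genes with UPRE, 102 measured, 5 were past 2-fold downwards and 0 upwards. Their median was 0.03 and 47 lay below 0.

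The size of the members' differences and, near 0, their sign depended on the scaling. The median of all genes was 0.08 in the reported setting, -0.25 after spike-in scaling and 0.37 with the percentile of unflagged spots. The members' median lay -0.80 from it in the reported setting. Both of those scalings leave this gap as it is by construction, since they subtract 1 constant per array from every gene. Where it could move it was -0.44 with the mean over probes, -0.61 with the stricter filter and -0.71 under normexp. It was -0.77 with no filter on dim probes, -0.84 after loess, -0.87 after quantile normalization and -0.92 with flagged spots kept. Derl3 and Sdf2l1 kept a difference of 2-fold or more in all 12 alternative settings. Hyou1 was so in 10 of the 11 that could read it, and Creld2 in 10 of 12. These settings are not separate checks, since Derl3, Sdf2l1 and Hyou1 are each read from 1 unflagged spot. Only quantile normalization, loess and normexp could move these 3 genes other than by 1 constant per array. In that order Derl3 was -4.47, -4.41 and -4.16, Sdf2l1 -1.65, -1.59 and -1.39, and Hyou1 -2.03, -2.07 and -0.90. Hspa5 was below 0 in 11 of 12 settings, Xbp1 in 5 and Herpud1 in 3.

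**Figure D3:**
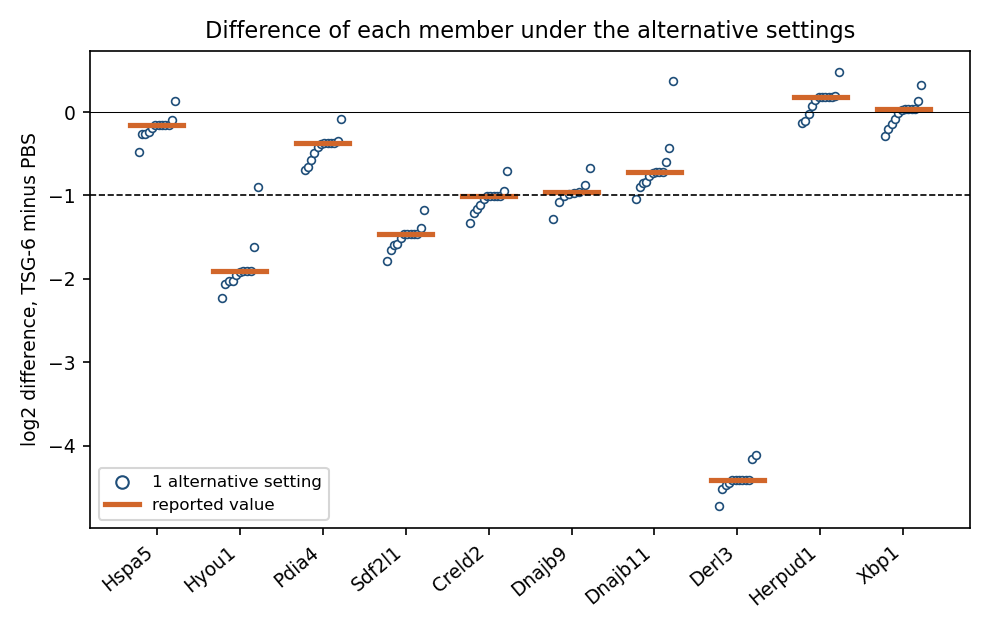
Reported log2 difference of each member (bar) and its value in each alternative setting (open circles); the dashed line marks 2-fold lower. Derl3 stays between -4.73 and -4.12, Hyou1 rises to -0.90 in 1 setting, the circle of Dnajb11 at 0.37 is the mean over its probes, and Herpud1 and Xbp1 straddle 0.

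Other genes of the secretory pathway were read from fixed lists. These lists, and the marker lists further on, were chosen with earlier results of these arrays known. Their counts stand beside the shares over all measured genes as a description and single out no list. The shares were 4.29% past 2-fold downwards and 2.94% upwards. Among ER chaperones and co-chaperones, 26 genes were measured and their median was -0.36; 5 passed 2-fold downwards and 1 upwards. Without the members, 2 of 21 were 2-fold lower: Dnajc3 and Fkbp10, a prolyl isomerase that folds collagen, 2.52-fold lower. Cdnf was 2.03-fold higher, but passed 2-fold in only 5 of the 11 alternative settings that could read it and was lowest, at 0.70, after spike-in scaling. The collagen chaperone Serpinh1 differed by -0.80. Genes of the calnexin and calreticulin cycle, by which sugar-bearing chains are folded, had a median of -0.07 and 0 of 7 past 2-fold, with Mogs lowest at -0.29 and Prkcsh highest at 0.21. For disulfide isomerases and oxidases the median was -0.10 and 0 of 15 were past 2-fold, from Txndc5 at -0.58 to Pdia2 at 0.38.

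Derl3 stood alone among the ERAD genes. It was the 1 gene of the 32 measured that was past 2-fold in either direction, and the median of that list was 0.02. The other ERAD genes ran from Sel1l at -0.56 to the ligase gene Marchf6 at 0.68. A further list holds translocon, signal peptidase and oligosaccharyltransferase genes, which bring chains into the ER and add their sugars. Of 22 measured, 1 was past 2-fold. This was Srprb, part of the signal recognition particle receptor, 2.30-fold lower, and -0.91 with the percentile of unflagged spots. Spcs2 and Spcs3 differed by -0.14 and -0.56 with their brighter probes, but by -1.27 and -1.19 with their other probes. Among genes of ER to Golgi transport 1 of 24 was past 2-fold. This was Kdelr3, a receptor that returns escaped ER chaperones, which had a signal of 2288 in the PBS pool and 377.8 in the TSG-6 pool and was 4.75-fold lower. Its paralogues Kdelr1 and Kdelr2 differed by -0.17 and -0.63. Lman1, of the same list, differed by -0.0015 with its brighter probe and by -1.10 with its other probe. The counts of 1 of 32, 1 of 22 and 1 of 24 lie near the 4.29% of all measured genes that passed 2-fold downwards. They single out none of these lists.

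Among UPR sensors and transcription factors the median was -0.32 and 1 of 12 was past 2-fold: Creb3l1, which encodes the ER-anchored factor OASIS, 2.29-fold lower, and -0.90 with the percentile of unflagged spots. Targets of the PERK and ATF4 arm, which slows translation and raises amino acid supply, form a further list. Of 17 measured, 8 passed 2-fold downwards and none upwards, and 10 lay below 0, against 42.5% of all genes. The median was -0.26, from -0.76 to 0.03 over the alternative settings. The serine synthesis genes Psat1 and Phgdh were 13.5-fold and 11.1-fold lower, although the other probe of Psat1 differed by -0.99. Atf3 was 10.9-fold and Trib3 3.02-fold lower. Ddit3, which encodes the pro-apoptotic factor CHOP, had a signal of 28025 in the PBS pool and 9098 in the TSG-6 pool, 2.42-fold lower and just under 2-fold, at -0.98, with the percentile of unflagged spots. Atf4 itself differed by 0.18, and the highest of the list were Ddit4 at 0.50 and Chac1 at 0.38. The cystine transporter Slc7a11 was detected on the PBS array alone. With its TSG-6 level set at the lowest level of any detected probe on that array, -7.06, it was 32.01-fold lower. That figure rests on 1 dim floor value and is no strict bound.

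Chaperones of other compartments gave a comparison. Of 15 cytosolic heat shock genes, Hspa1a, Hsph1 and Hspb1 were 2-fold lower or more. The median was -0.17, from -0.49 to 0.12 over the alternative settings. Hspb1 was -0.73 with the percentile of unflagged spots. Dnaja1 differed by -0.06 with its brighter probe and by -1.05 with its other probe. Of 7 mitochondrial chaperones and proteases none was past 2-fold, and all 7 lay between 0.04 and 0.32 in the reported setting. Their median of 0.09 ran from -0.23 to 0.38 over the alternative settings. The medians of the calnexin, disulfide isomerase, ERAD, translocon and transport lists also changed sign with the setting. Those of ER chaperones and of UPR sensors stayed below 0, from -0.68 to -0.07 and from -0.64 to -0.03.

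**Figure D4:**
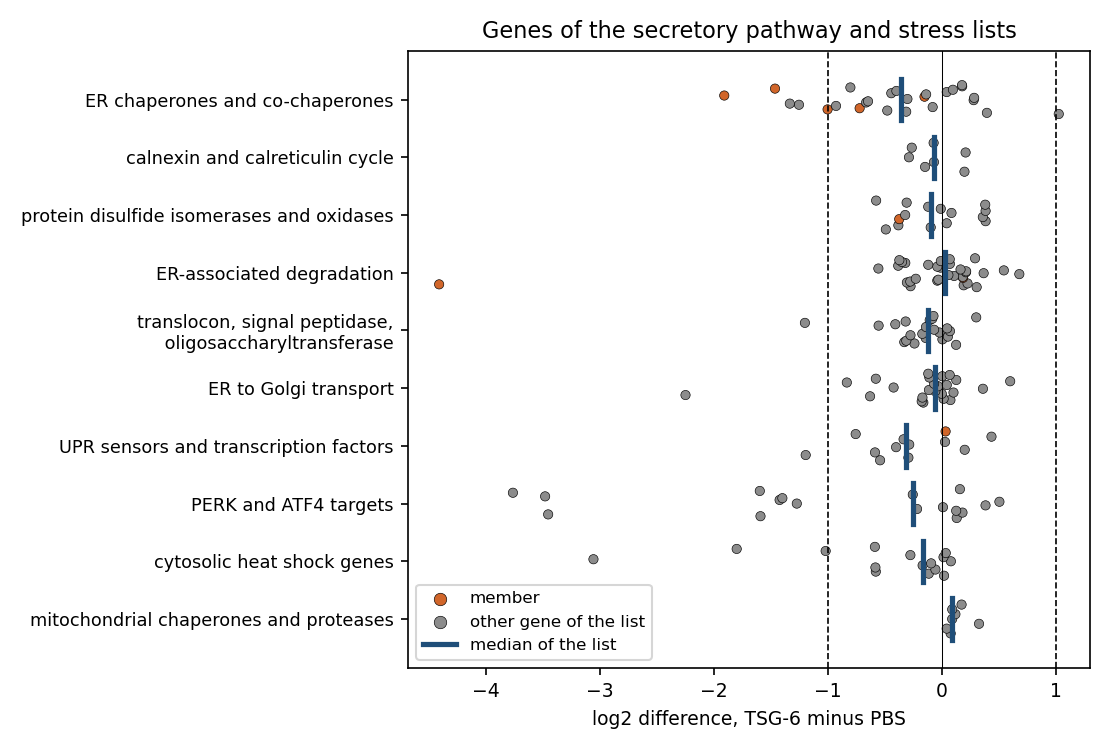
Difference (TSG-6 minus PBS, log2) of every measured gene of the 10 lists, with members in orange, other genes in grey and the median of each list as a bar; dashed lines mark 2-fold. Derl3 lies far from the other ERAD genes, and the PERK and ATF4 targets split into 8 genes past the lower line and 9 genes inside both.

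Cell types with a large ER were checked through their markers, since Derl3, Sdf2l1, Creld2 and Hyou1 are not made by hepatocytes alone. Exocrine pancreas markers had lower values after TSG-6: of 17 on the array 10 were measured, of which 5 passed 2-fold downwards and 1 upwards, and the median was -1.03. That median was -0.34 with flagged spots kept, -0.70 under normexp and -1.84 with no filter on dim probes. The summed signal of the 10 was 4.19 times the 75th percentile in the PBS pool and 0.994 times in the TSG-6 pool. Bhlha15 and Cela1 made up 3.48 and 0.480 of these sums. The other 8 summed to 0.703 and 0.513, with a median difference of -0.32, a split chosen after seeing the data. Bhlha15, a transcription factor of secretory cells, was 16.9-fold lower (signals of 7460 and 346.3). The others past 2-fold were dim or medium: Prss2 (265.1 and 21.8), Try5 (414.0 and 46.97), Ctrb1 (253.5 and 37.5) and Cela1 (3544 and 843.2) were lower, and Cela2a (137.0 and 262.4) was higher, though under 2-fold at 0.97 after spike-in scaling and under normexp. Cpa1, Cpb1, Pnlip and Try4 were detected on the PBS array alone, while the defining markers Ptf1a and Cuzd1 were not well above background on either array. With the TSG-6 level set at the lowest detected level, -7.06, Try4 was 8.95-fold, Pnlip 7.08-fold, Cpa1 2.95-fold and Cpb1 1.25-fold lower. These figures rest on a dim floor value and are no strict bounds. Amy2a5, which had flagged spots only, differed by 0.41. Trypsinogen genes have near-identical copies, so the values of Prss2, Try4 and Try5 are uncertain. The part of this signal in the differences of the members was not tested.

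Of 10 plasma cell markers measured, none was past 2-fold, and the median was 0.15, with a range from -0.17 to 0.44 over the alternative settings. The lowest was Slamf7, a surface receptor, at -0.74. Over the 10 the summed signal was 9.44 times the 75th percentile in the PBS pool and 12.3 times in the TSG-6 pool. Sdc1 was by far the brightest of the 10 and made up most of both sums, which thus say little of the others. Its levels were 2.78 in the PBS pool and 3.23 in the TSG-6 pool, against -0.24 and -0.16 for the next, Pou2af1. Mzb1, an ER protein of plasma cells, differed by 0.49, and Jchain, with flagged spots only, by 0.20. The part of plasma cells in the values of the members was not tested. Hepatocyte markers had a median of 0.37 over 9 measured genes with a summed signal of 161.1 and 219.6 times the 75th percentile, and the difference of Alb, albumin, was 0.37; these defining genes of the labelled tissue were detected on both arrays. The hepatocyte median was -0.01 after quantile normalization, 0.05 after spike-in scaling and 0.12 after loess. The 1 hepatocyte marker past 2-fold, the cytochrome P450 gene Cyp2e1, was 2.27-fold higher and passed 2-fold in 9 of 12 alternative settings. Activated stellate cells are the collagen-secreting cells of fibrosis. Their markers had lower values, with 5 of 10 past 2-fold downwards and a median of -1.02. The summed signal was 56.9 and 36.3 times the 75th percentile. The lowest were Acta2 (-2.47), Cthrc1 (-1.91), Lox (-1.64, and -0.43 with its other probe) and Des (-1.23). The collagen genes moved less, Col1a1 by -0.58, Col1a2 by -0.33 and Col3a1 by -0.28. With the percentile of unflagged spots 3 of 10 were past 2-fold and the median was -0.73. None of the 10 stellate cell markers was missing from either array. The part of stellate cells in the lower values of the members was not tested.

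The remaining marker lists are given for completeness. Macrophage markers had a median of 0.19 but a mean of -0.11 over 8 genes; 5 lay above 0, and 1 passed 2-fold, Gpnmb, which was 2.502-fold lower (signals of 12021 and 3766). Of 7 endothelial and 4 cholangiocyte markers none passed 2-fold, and the medians were 0.27 and -0.34. The macrophage and endothelial medians changed sign with the setting, to -0.13 and -0.05 after spike-in scaling. Promyelocyte and neutrophil markers did not move as 1 group. Of 11, 7 were past 2-fold upwards, and the median was 2.78. The highest were Ctsg (3.96), Mpo (3.89), Ngp (3.67) and Ltf (3.49). S100a8 (0.85), Csf3r (0.44), S100a9 (0.18) and Cxcr2 (-0.19) were under 2-fold in the reported setting. The summed signal of the 11 was 34.4 times the 75th percentile in the PBS pool and 68.6 times in the TSG-6 pool. The part of these 4 cell classes in the values of the members was not tested.

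**Figure D5:**
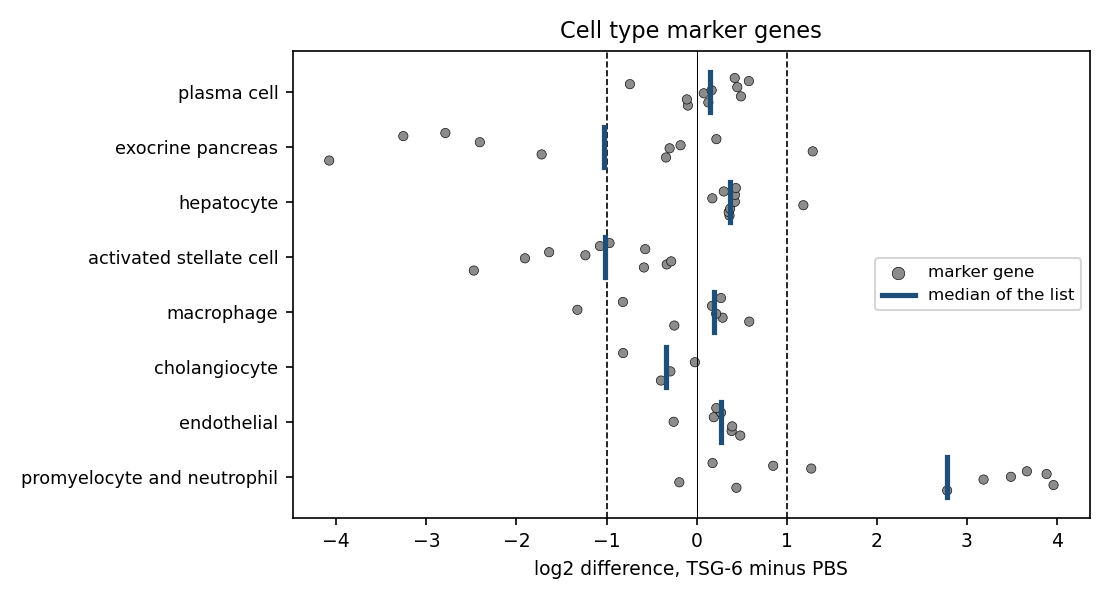
Difference (TSG-6 minus PBS, log2) of every measured marker gene (grey) of 8 cell types, with the median as a bar; dashed lines mark 2-fold. In the setting shown the medians of exocrine pancreas (-1.03) and activated stellate cells (-1.02) lie at the lower line, while over 12 alternative settings they ran from -1.84 to -0.34 and from -1.34 to -0.73; that of plasma cells (0.15) lies near 0 and that of promyelocytes and neutrophils (2.78) lies far above the upper line.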

How the data were processed

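Total liver RNA (0.2 ug per array, per the labels) was profiled on 2 one-colour arrays. Per the file headers, the deposited scanner files hold spot intensity after background subtraction and spatial detrending by the scanner software, and they name Agilent Feature Extraction 11.5.1.1; the submitters' processing notes name 10.7. The deposited value table holds log2 values; for 99.7% of probes they match the scanner files to within 0.001 once 1 constant per array is subtracted.

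Control spots and spots with an outlier flag (3.40% on the PBS array, 6.44% on the TSG-6 array) were left out. Levels were log2 signal minus each array's 75th percentile, taken over every non-control spot. A probe counted as measured if 50% or more of its usable spots exceeded background clearly on each array, and a gene was read from its brightest such probe. Bounds used the lowest detected level (-7.04 and -7.06). Accessions matched a RefSeq table (GRCm38.p6, names only) for 26762 of 55681 probes; the array was designed on mm9. Genes were counted by a fixed size of 2-fold, with no test. Members and lists were chosen with earlier results of these data known. Named were all members, a fixed set of partners and, per list, genes past 2-fold, at most 4 in each direction, or the extremes. Serpinh1, Mzb1, Alb, Acacb, Jchain, Amy2a5, Slc7a11, Slamf7, the Kdelr paralogues and the extremes of the ERAD list were added after their values were seen. So were Spcs2, Spcs3, Lman1, Dnaja1, Col1a1, Col1a2, Col3a1, S100a8, S100a9, Csf3r, Cxcr2, Sdc1, Pou2af1, Ddit4 and Chac1. Protein sequences were not analysed here. Alternatives used limma 3.58.1 (normexp with an offset of 50, quantile, loess), array median, spike-in and other percentiles, filters, probes and the value table. Steps were tested on simulated data.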

Additional observations from a re-analysis of the deposited data

How the results depend on the processing

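The count of 4 members at least 2-fold lower was 2 under normexp background correction, where Hyou1 and Creld2 fell short, and 2 with a limit of 3-fold; it was 3 to 5 in the other settings. The median of the members, -0.72, was -0.90 after quantile normalization, -0.85 after loess, -1.04 after spike-in scaling, -0.43 with the percentile of unflagged spots, -0.55 with the stricter filter, which lost Hyou1, and -0.37 with the mean over probes, which moved Dnajb11. It stayed below 0 in all 12 alternative settings. Over all genes, 650 were lower and 446 higher at 2-fold. These counts were 1257 and 212 after spike-in scaling, 376 and 1018 with the percentile of unflagged spots, 402 and 290 under normexp, 379 and 262 with the stricter filter, and 956 and 906 with no filter on dim probes. The higher share of calls, 40.7%, was 14.4% after spike-in scaling, 29.5% with the array median and 73.0% with the percentile of unflagged spots. No paired analysis was possible because each group has 1 array. No array could be left out for the same reason. Dim probes such as that of Hyou1 rest on little signal over background, and single spots carry most members.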

Other observations

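Beside Dnajb9, 20 genes of the 7 lists of secretory pathway genes had flagged spots only. With those spots kept 1 of the 20 was 2-fold lower and none was 2-fold higher; 14 lay below 0 and 6 above, and the median was -0.29. The genes named here were chosen after their values were seen. Ero1b, an oxidase that recharges the disulfide isomerases and one of the genes with ERSE in the promoter window, had a signal of 8369 in the PBS pool and 2873 in the TSG-6 pool, 2.28-fold lower. Erp44, which retains unassembled proteins in the early secretory pathway, was 1.99-fold lower, and the ER peroxidase Gpx8 1.73-fold lower. The oligosaccharyltransferase subunit Tusc3 was 1.69-fold lower and Stt3a 1.55-fold lower. Pdia3, the glycoprotein disulfide isomerase, differed by 0.02 and the cargo receptor subunit Mcfd2 by 0.00. Among those above 0, Aup1, which recruits ubiquitin-conjugating enzymes for ERAD, was highest at 0.29, followed by the COPII coat subunit Sec24b at 0.22 and Tmx2 at 0.10.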
